A study of Homo sapiens with 6 samples.

Results

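The cytosolic heat shock and chaperonin genes are the heat shock transcription factors, the HSP70, HSP110, HSP90 and small heat shock proteins, the J-domain proteins, the chaperonin and prefoldin subunits and their co-chaperones. They were chosen by name from a list of 46 gene symbols, the rule itself using no measured value. All 46 symbols were found in the table of 58735 genes, on 47 entries, because HSPA14 is listed under 2 overlapping identifiers. All 47 entries passed the filter of a mean of at least 1 FPKM (fragments per kilobase of gene length, scaled for sequencing depth) and were among the 13585 genes tested. The list is broader than its name, since HSPA13 resides in the endoplasmic reticulum, DNAJC8 and DNAJC9 act in the nucleus and HSPB11 is a component of intraflagellar transport.

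RNA sequencing was performed on MM.1S, a cell line long established from human multiple myeloma. Cells given a negative control siRNA (si-NC) made up 3 control libraries. The 3 libraries termed PRMT1 KD, for knockdown, came from cells given an siRNA to PRMT1, an enzyme that methylates arginine residues. The siRNA was used at 100 nM, and the RNA-seq was of cells 72 h after transfection. Which PRMT1 siRNA entered the libraries was not given in the sources used here, so sequence-specific effects of an siRNA and loss of PRMT1 cannot be told apart, and the knockdown was transient and partial in a single cell line.

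Cytosolic chaperones hold unfolded proteins in a state from which they can fold or be passed to the proteasome. HSP70 proteins bind short stretches of unfolded chain in a cycle driven by ATP, J-domain proteins deliver clients and trigger ATP hydrolysis, and HSP110 and BAG proteins exchange the nucleotide. HSP90 matures kinases and steroid receptors, whereas prefoldin hands unfolded actin and tubulin to the ring-shaped chaperonin TRiC (also named CCT). When unfolded proteins accumulate, heat shock factor HSF1 binds heat shock elements, inverted repeats of the unit GAA, and drives transcription of the inducible members. Myeloma cells secrete large amounts of immunoglobulin, and their survival is known to depend on protein quality control.

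To show which of the genes carry the binding sequence of this pathway, heat shock elements were searched in promoter windows of RefSeq (GRCh38.p14) reaching from 250 bases before each annotated start to the first 50 bases after it. Of the 46 genes, 38 had a window. A match of 3 units was written as TTCNNGAANNTTC or GAANNTTCNNGAA, which together cover both strands, and it always contains overlapping matches of 2 units (TTCNNGAA or GAANNTTC). Matches of 3 units stood in 5 of the 38 genes (13.2%), compared with 166 of 27305 genes with a window (0.608%) and 38 of 8491 tested genes with a window (0.448%). Matches of 2 units stood in 16 of the 38 genes (42.1%), compared with 16.2% of all genes with a window and 13.4% of the tested genes. A match is a description of the sequence and does not show that the site was bound.

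The 7 matches of 3 units, the longest pattern searched, are printed in full, read on the strand of the gene. The search allowed no mismatch, so a gene without a match may still carry heat shock elements. The heat-inducible genes HSPH1 and BAG3 had no match, and HSPA1A, HSPA1B, DNAJB1 and HSPB1 had matches of 2 units only. Position -1 is the base before the annotated start and position 1 is the start. The matches lie at chr11:123062354-123062366 and chr11:123062179-123062191 (minus strand, starting at positions -230 and -55) for HSPA8. They lie at chr6:44247778-44247790 and chr6:44247831-44247843 (plus strand, positions -165 and -112) in 1 of 3 windows of HSP90AB1. Those of HSP90AA1, DNAJB6 and DNAJA1 lie at chr14:102087120-102087132 (minus strand, position -88, in 1 of 2 windows), chr7:157336873-157336885 (plus strand, position -131) and chr9:33025276-33025288 (plus strand, position 4).
HSPA8, distal: GAAAGTTCCAGAA
HSPA8, proximal: TTCTGGAAGGTTC
HSP90AB1, distal: TTCTGGAAGATTC
HSP90AB1, proximal: TTCTGGAAGCTTC
HSP90AA1: TTCCGGAAGGTTC
DNAJB6: GAACCTTCGCGAA
DNAJA1: GAACTTTCCAGAA

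The 250 bases before an annotated start are shown for HSPA8 (chr11:123062137-123062386, minus strand), the gene with the highest log2 fold change of the list, and for HSP90AB1 (chr6:44247693-44247942, plus strand), the most abundant. For HSP90AB1 this is the most downstream of its 3 annotated starts, and the windows of the others held no match. Both carry a pair of 3-unit matches, which are set in capitals.
HSPA8: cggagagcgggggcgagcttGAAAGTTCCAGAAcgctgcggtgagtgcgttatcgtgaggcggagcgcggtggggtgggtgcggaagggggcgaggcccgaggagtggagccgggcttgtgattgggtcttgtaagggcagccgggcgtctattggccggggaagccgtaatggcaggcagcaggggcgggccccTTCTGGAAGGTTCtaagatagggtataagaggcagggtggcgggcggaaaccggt
HSP90AB1: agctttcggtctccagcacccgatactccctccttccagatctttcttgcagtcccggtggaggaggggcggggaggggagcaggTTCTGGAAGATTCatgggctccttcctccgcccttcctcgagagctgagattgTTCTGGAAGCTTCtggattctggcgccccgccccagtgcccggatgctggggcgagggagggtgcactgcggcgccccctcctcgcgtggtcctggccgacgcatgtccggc

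The libraries held 14439217 to 16465026 reads on genes, worked back from the FPKM values. PRMT1 itself was at 61.7, 62.8 and 58.9 FPKM in control libraries 1 to 3 and at 13.3, 14.02 and 12.5 FPKM in PRMT1 KD libraries 1 to 3, so the knockdown left 21.7% of the control level (log2 fold change -2.13, SE 0.0552, limma adjusted p = 2.77e-05). All 9 plasma cell markers examined were at or above 1 FPKM, with a summed level of 1329 to 1409 FPKM in control and 1314 to 1487 FPKM in PRMT1 KD libraries, and SLAMF7 was the only one of them with an adjusted p under 0.05. Of 15 markers of B cells, T cells, monocytes, erythroid cells and stroma, 2 reached 1 FPKM (CD3E, with a mean of 35.8 FPKM, and PAX5) and MS4A1, HBB and COL1A2 were at 0 in every library. The summed level of these markers, mostly CD3E, was 34.0 to 37.9 FPKM in control and 38.4 to 40.5 FPKM in PRMT1 KD libraries, and its part in the results was not tested.

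To ask whether PRMT1 KD moved the cytosolic folding machinery, the 3 PRMT1 KD libraries were compared with the 3 control libraries. None of the 47 entries passed the test (0 with a limma adjusted p under 0.05), against 2.05% of all genes tested, while 6 had an unadjusted p under 0.05 and limma's voom called 3. The entry with the smallest adjusted p was HSPA8, the constitutive HSP70, which was at 129% of its control level (adjusted p = 0.0629). The other 46 lay between 81.4% (PFDN6) and 116% (DNAJC2) of control. HSPA8 is one of the core heat shock genes named here. The others of that core, HSF1, HSPA1A, HSPA1B, HSP90AA1, HSP90AB1, HSPH1 and DNAJB1, were between 92.6% and 104% of control. In limma, no entry of the inducible genes, the chaperonin, prefoldin or the co-chaperones was called in either direction, whereas voom called the prefoldin subunit PFDN6.

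The bounds on what these data allow were narrow. On the scale of log2(FPKM + 1), the log2 fold changes ran from -0.29 to 0.36, with 24 above and 23 below 0 and a median of 0.011 (0.0095 over all genes tested). Their median size without sign was 0.054, compared with 0.105 over all genes tested, and their median SE was 0.0655, compared with 0.0845. The genes of the list were more abundant than most, with a median of 31.5 FPKM against 6.31 FPKM. The 95% intervals of all 47 entries lay within 1.5-fold in either direction, the lowest bound being 0.717-fold for PFDN6 and the highest 1.45-fold for HSPA8. Among all genes tested, 84.9% had such an interval. In bulk RNA a change in the number of cells with a transcript and a change in the transcript per cell cannot be told apart.

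**Figure D1:**
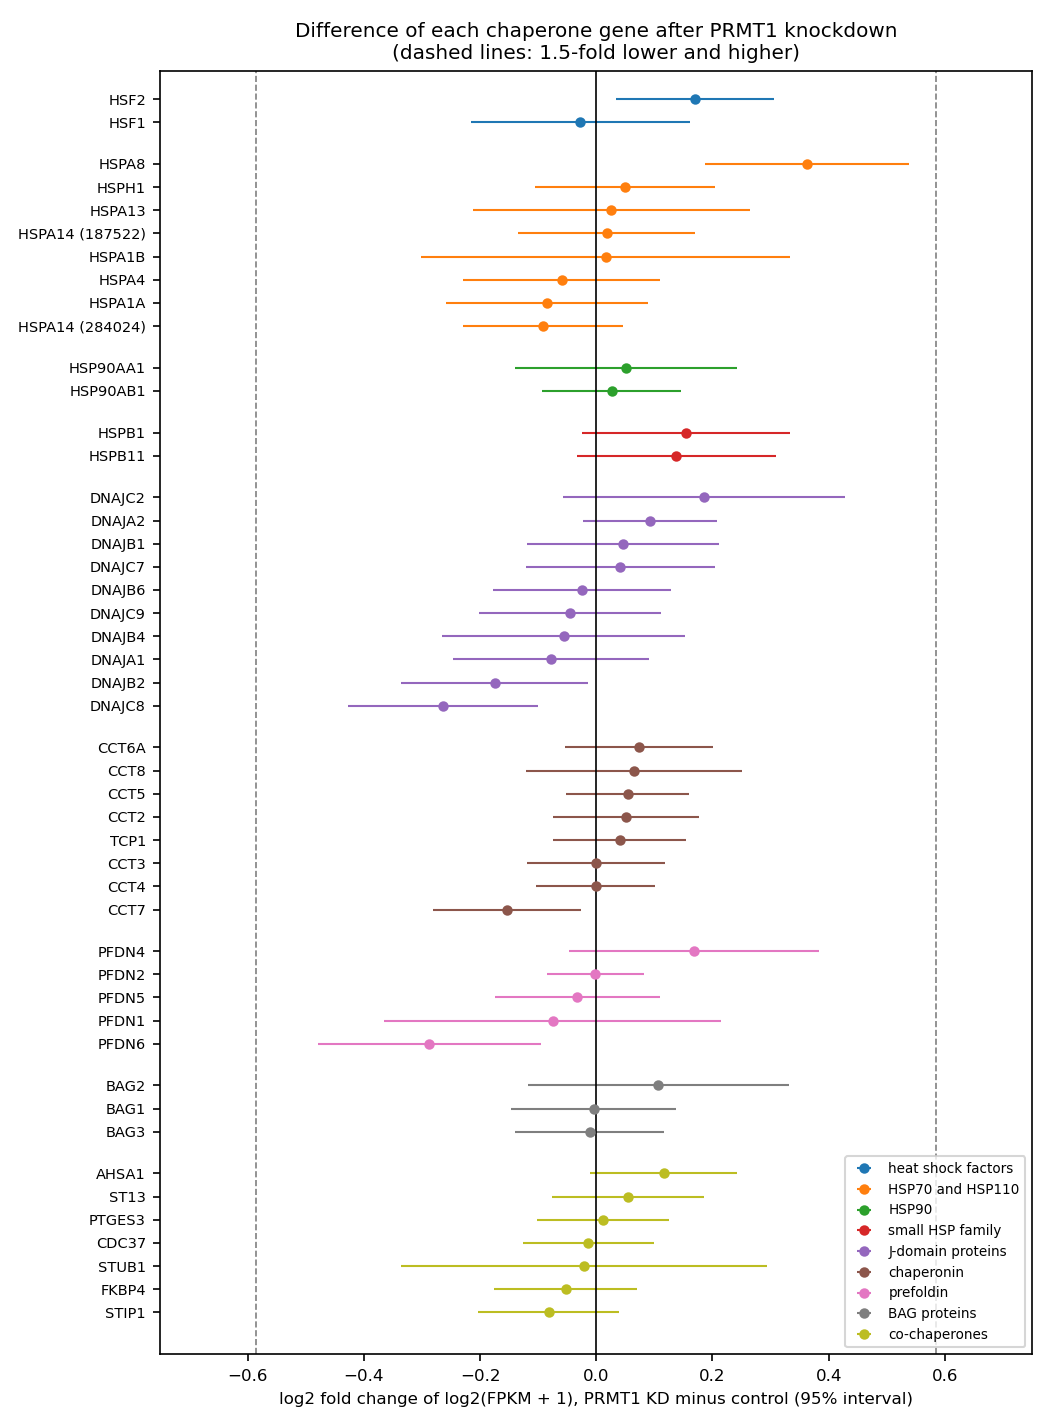
The log2 fold change of each of the 47 entries (x axis, PRMT1 KD minus control on the log2(FPKM + 1) scale, 3 libraries a group) with its 95% interval from limma, grouped by role, with the last 6 digits of the identifier for the HSPA14 entries. All intervals lie inside the dashed lines at 1.5-fold, and HSPA8 stands farthest to the right at 0.36.

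Weaker criteria gave shares near or below those of all genes, each resting on only 2 to 5 entries. At an unadjusted limma p under 0.05, 2 entries were higher (HSPA8 and HSF2, 4.26% of the entries against 10.1% of all genes tested) and 4 were lower (PFDN6, DNAJC8, DNAJB2 and CCT7, 8.51% against 9.47%). The 3 PRMT1 KD libraries all lay above the 3 control libraries in 5 entries (HSPA8, HSF2, AHSA1, DNAJA2 and CCT6A, 10.6% against 13.6%) and all below them in another 5 (PFDN6, DNAJC8, DNAJB2, CCT7 and HSPA1A, 10.6% against 12.3%). With limma's voom on the reads worked back from FPKM, 3 entries were called (HSPA8 with an adjusted p of 0.00205, DNAJC8 with 0.0256 and PFDN6 with 0.0372), 6.38% of the entries against 6.82% of all genes tested. The exact two-sided permutation test of a single gene gives at best p = 0.1 with 3 libraries against 3, and p = 0.1 was reached in each of the 10 separated entries.

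The heat shock transcription factors were both expressed. HSF1 (ENSG00000185122, chromosome 8, 144291591 to 144314722), the master regulator of the response, was at 31.3, 34.5 and 29.7 FPKM in control libraries 1 to 3 and at 33.2, 32.3 and 28.2 FPKM in PRMT1 KD libraries 1 to 3. The groups overlapped, with a log2 fold change of -0.027 (SE 0.0796, limma adjusted p = 0.887) that turned positive in some alternatives. HSF2, a factor that forms trimers with HSF1, was at 14.5, 14.7 and 15.4 FPKM in control and at 16.1, 16.4 and 17.98 FPKM in PRMT1 KD libraries. Every PRMT1 KD library was above every control library, at 113% of the control mean, but the difference did not pass the test (log2 fold change 0.17, SE 0.0576, limma adjusted p = 0.170). The mRNA level of a heat shock factor says nothing of its trimerization or activity.

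HSPA8 (HSC70; ENSG00000109971, chromosome 11, 123057489 to 123063230, minus strand) folds nascent chains, uncoats clathrin and feeds chaperone-mediated autophagy. It was at 250, 260 and 232 FPKM in the control libraries and at 291, 319 and 346 FPKM in the PRMT1 KD libraries. The lowest PRMT1 KD library thus lay above the highest control library. Means were 247 ± 14.4 and 319 ± 27.5 FPKM (SD, n = 3 each), and HSPA8 had a log2 fold change of 0.36 (SE 0.0743, 95% interval 0.19 to 0.54, limma adjusted p = 0.0629, unadjusted p = 0.00176). It was called in 5 of 18 alternatives, while leaving out any single library gave adjusted p-values of 0.0747 to 0.198. HSPA8 hosts the small nucleolar RNAs SNORD14C, SNORD14D and SNORD14E on the same strand, and 1.76% of the 75-base words of its transcript also occur in other genes of GENCODE 29.

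The inducible HSP70 genes lay near their control levels. HSPA1B was at 15.3, 15.3 and 11.7 FPKM in control and at 16.1, 14.7 and 11.95 FPKM in PRMT1 KD libraries (log2 fold change 0.016, SE 0.134, limma adjusted p = 0.965), with control 3 and PRMT1 KD 3 the lowest of their groups. HSPA1A was at 3.38, 3.77 and 3.36 FPKM in control and at 3.32, 3.36 and 3.07 FPKM in PRMT1 KD libraries. These groups did not overlap, but by a small margin (log2 fold change -0.084, SE 0.0734, limma adjusted p = 0.570). The pair are neighbouring near-copies on chromosome 6, with 71.2% of the 75-base words of HSPA1A also found in HSPA1B, so the split of reads between them is uncertain. Their summed level was 18.6, 19.1 and 15.1 FPKM in control and 19.5, 18.1 and 15.02 FPKM in PRMT1 KD libraries.

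The other HSP70 relatives were near their control levels. HSPH1, an HSP110 that exchanges nucleotide on HSP70 and is itself heat-inducible, was at 15.3, 14.1 and 16.1 FPKM in control and at 15.6, 14.9 and 16.6 FPKM in PRMT1 KD libraries (log2 fold change 0.049, SE 0.0655, limma adjusted p = 0.725). HSPA4, another HSP110, was at 96.2% of control, and HSPA13 was at 102%. The lowest log2 fold change of the family, -0.091 (SE 0.0585, limma adjusted p = 0.442), belonged to the HSPA14 entry ENSG00000284024, at 9.31, 10.3 and 9.56 FPKM in control and at 8.97, 9.45 and 8.73 FPKM in PRMT1 KD libraries. The overlapping HSPA14 entry ENSG00000187522 was at 101% of control. HSPA14 binds ribosomes with the J-domain protein DNAJC2. Since the 2 HSPA14 entries overlap on the same strand, their reads may have been split by the counting.

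The summed level of the 8 HSP70 and HSP110 entries was 376, 385 and 362 FPKM in control and 414, 442 and 479 FPKM in PRMT1 KD libraries. Without HSPA8 the sums were 126, 125 and 130 FPKM in control and 123, 122 and 133 FPKM in PRMT1 KD libraries, and the groups overlapped. The ratio of HSPA8 to HSP90AB1 in FPKM was 0.394, 0.393 and 0.381 in control and 0.470, 0.488 and 0.520 in PRMT1 KD libraries, without overlap. The ratio of DNAJB1, a J-domain partner of HSP70, to HSPA8 was 0.0675, 0.0648 and 0.0620 in control and 0.0554, 0.0527 and 0.0481 in PRMT1 KD libraries, also without overlap. In contrast, the ratio of HSPA8 to the sum of HSPA1A and HSPA1B overlapped, at 13.4, 13.6 and 15.3 in control and 14.96, 17.6 and 23.0 in PRMT1 KD libraries. HSPA8 alone was already without overlap between the groups, so its ratios with HSP90AB1 and DNAJB1 are not separate observations. No test was run on these sums and ratios.

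**Figure D2:**
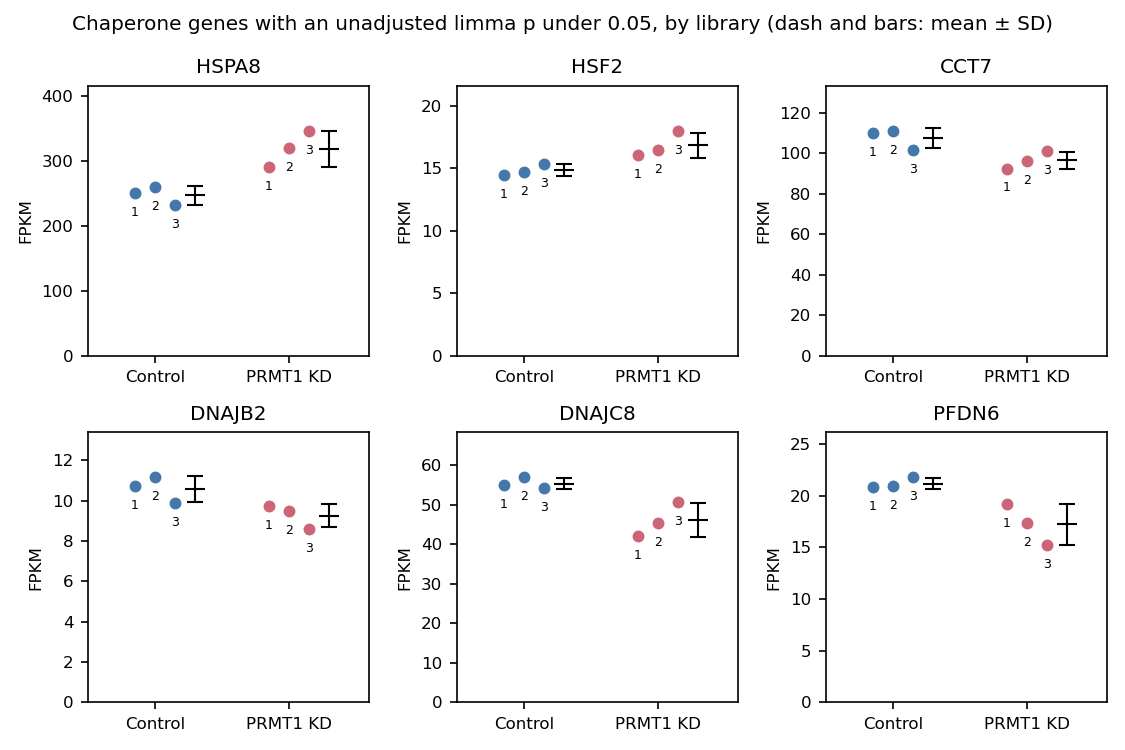
FPKM (y axis, from 0) in each library of the 6 genes with an unadjusted limma p under 0.05, for 3 control and 3 PRMT1 KD libraries numbered by replicate, with the mean and SD beside them. The groups do not overlap in any of the 6, which also holds for 2454 of the 2655 genes tested with such a p. HSPA8 shows the highest ratio of means, 129% of control.

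The HSP90 genes included the most abundant of the list. HSP90AB1, the constitutive HSP90, had the highest level of all 47 entries, at 636, 661 and 608 FPKM in control and 620, 654 and 665 FPKM in PRMT1 KD libraries (log2 fold change 0.027, SE 0.0504, limma adjusted p = 0.814). The interval of this difference ran from 0.938-fold to 1.11-fold. HSP90AA1, the stress-inducible HSP90, was at 161, 156 and 169 FPKM in control and at 157, 158 and 190 FPKM in PRMT1 KD libraries (log2 fold change 0.051, SE 0.0808, limma adjusted p = 0.774). Its mean lay above control because of PRMT1 KD library 3, without which its log2 fold change was -0.039. In FPKM, HSP90AB1 exceeded HSP90AA1 by 3.50-fold to 4.25-fold in every library.

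Thus the 5 genes with 3-unit heat shock elements gave log2 fold changes of 0.36 (HSPA8), 0.051 (HSP90AA1), 0.027 (HSP90AB1), -0.025 (DNAJB6) and -0.078 (DNAJA1). They lay on both sides of 0, and none was called by limma (2.05% of all genes tested). With voom HSPA8 was called and the other 4 were not (6.82% of all genes tested).

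The small heat shock protein family of the list had the highest median of the 9 roles, a log2 fold change of 0.15 over only 2 genes. Outside the list, HSPB7 and HSPB8 went the other way. Their log2 fold changes were -0.32 and -0.15 (limma adjusted p = 0.166 and 0.304), with every PRMT1 KD library below every control library. The other small heat shock genes examined outside the list did not pass the filter. HSPB1 (HSP27), which holds unfolded proteins without ATP, was at 276, 279 and 242 FPKM in control and at 308, 307 and 272 FPKM in PRMT1 KD libraries. Control 3 and PRMT1 KD 3 were the lowest of their groups, and the groups overlapped (log2 fold change 0.15, SE 0.0754, limma adjusted p = 0.316). HSPB11 was at 7.84, 8.51 and 7.98 FPKM in control and at 8.18, 9.21 and 9.74 FPKM in PRMT1 KD libraries (log2 fold change 0.14, SE 0.0726, limma adjusted p = 0.348). Of the words of HSPB1, 7.9% are shared with its pseudogene HSPB1P1.

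The 10 J-domain genes had a median log2 fold change of -0.035, with 4 above and 6 below 0. DNAJC8, which associates with the splicing machinery, was at 55.1, 56.9 and 54.2 FPKM in control and at 42.2, 45.4 and 50.7 FPKM in PRMT1 KD libraries. The groups were apart, at 83.2% of control (log2 fold change -0.26, SE 0.0692, limma adjusted p = 0.106). DNAJB2, a neuronal-enriched J-domain protein that sorts clients to the proteasome, was at 10.7, 11.1 and 9.86 FPKM in control and at 9.71, 9.46 and 8.60 FPKM in PRMT1 KD libraries (log2 fold change -0.18, SE 0.0682, limma adjusted p = 0.222). In the other direction, DNAJC2, a ribosome-bound partner of HSPA14, was at 6.70, 6.69 and 7.34 FPKM in control and at 7.40, 7.21 and 9.51 FPKM in PRMT1 KD libraries. Its groups overlapped (log2 fold change 0.18, SE 0.103, limma adjusted p = 0.375).

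DNAJB1 (HSP40), the stress-inducible J-domain partner of HSP70, was at 16.9, 16.8 and 14.4 FPKM in control and at 16.1, 16.8 and 16.6 FPKM in PRMT1 KD libraries (log2 fold change 0.046, SE 0.0701, limma adjusted p = 0.762). DNAJA2 was at 107% of control with separated groups (log2 fold change 0.092, limma adjusted p = 0.353), and DNAJA1, DNAJB4, DNAJB6, DNAJC7 and DNAJC9 lay between 94.2% and 103% of control with overlapping groups. DNAJB4 was the least abundant entry of the list, with 1.84 ± 0.0999 FPKM in PRMT1 KD and 1.95 ± 0.113 FPKM in control libraries (SD, n = 3 each). It still had a mean of 114 reads per library.

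TRiC is built from the 8 subunits TCP1 and CCT2 to CCT8, which the complex holds in equal number. Their FPKM values were not equal, the highest subunit being 3.79-fold to 4.13-fold above the lowest within each library. CCT3 led in all 6 libraries, with 245, 252 and 228 FPKM in control and 236, 241 and 247 FPKM in PRMT1 KD libraries. In FPKM, CCT4, CCT6A and CCT2 followed each other in this order in every library. CCT5 and TCP1 shared the lowest places, at 59.1 to 65.5 and 58.7 to 65.2 FPKM. This order depends on the deposited gene length that FPKM divides by, 2830 bases for CCT4 and 4322 for CCT2. Their longest protein-coding transcripts have 2520 and 2189 bases, and in control library 1 they had 4406 and 5096 reads. TCP1 and CCT5 traded places between libraries in FPKM, with deposited lengths of 4929 and 5839 bases. Their longest protein-coding transcripts have 2499 and 3675 bases, and a difference between these genes was not tested. The level of an mRNA per length is not the amount of the subunit.

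The order of CCT7 and CCT8 was not the same in all libraries either. CCT7 was at 110, 111 and 102 FPKM in control and at 92.5, 96.0 and 101 FPKM in PRMT1 KD libraries, and all 3 PRMT1 KD values were below the control values. CCT8 was at 107, 107 and 115 FPKM in control and at 106, 110 and 129 FPKM in PRMT1 KD libraries, with overlapping groups. CCT7 stood above CCT8 in control libraries 1 and 2, and CCT8 stood above CCT7 in control library 3 and in all PRMT1 KD libraries. CCT7 had the lowest log2 fold change of the subunits, -0.15 (SE 0.0538, limma adjusted p = 0.179). That of CCT8 was 0.066 (SE 0.0787, limma adjusted p = 0.693).

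The highest log2 fold change of the chaperonin was 0.073, for CCT6A (SE 0.0538, limma adjusted p = 0.500), at 81.1, 80.5 and 81.1 FPKM in control and 82.5, 81.6 and 91.8 FPKM in PRMT1 KD libraries. Its groups did not overlap, with PRMT1 KD library 2 just above the closely spaced control values. Without PRMT1 KD library 3, the value of CCT6A was 0.019. CCT2, CCT3, CCT4, CCT5 and TCP1 lay between 99.9% and 104% of control, and CCT4 had a mean of 93.9 FPKM in both groups (95% interval of the difference 0.931-fold to 1.07-fold). The summed level of the 8 subunits was 830, 842 and 806 FPKM in control and 800, 819 and 876 FPKM in PRMT1 KD libraries, which overlapped.

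**Figure D3:**
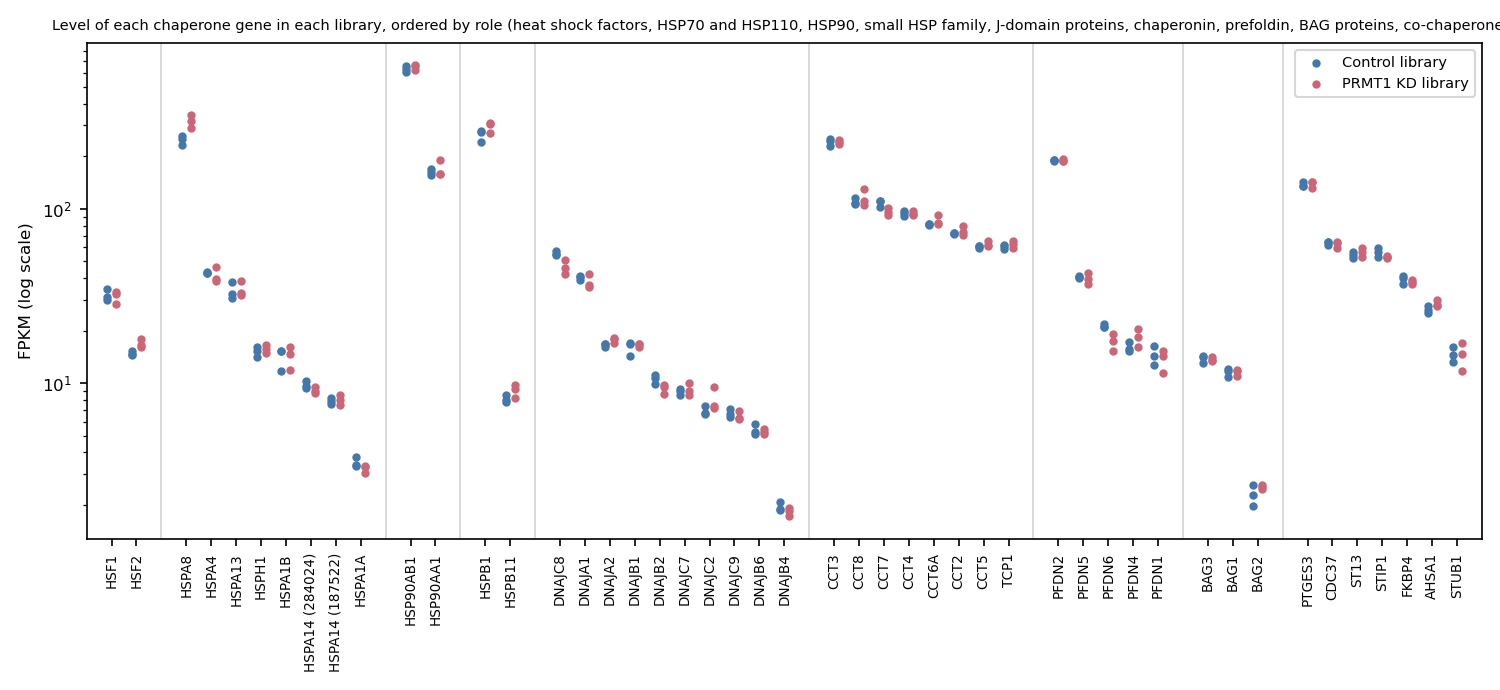
FPKM (y axis, log scale) of each entry in each of the 3 control and 3 PRMT1 KD libraries, ordered by role and by level within the role. Mean levels run from 1.89 FPKM for DNAJB4 to 641 FPKM for HSP90AB1, and blue and red points of most genes lie side by side.

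In FPKM, prefoldin subunits were spread more widely than those of the chaperonin, the highest being 12.1-fold to 16.5-fold above the lowest within a library. FPKM divides by the deposited gene length, which is 3380 bases for PFDN5, whose longest protein-coding transcript has 847. For PFDN2 both lengths are 677 bases. In control library 1 PFDN5 had 2298 reads and PFDN2 had 2119, so the spread and order of the subunits depend on the length used. PFDN2 was steady at 189, 190 and 189 FPKM in control and 188, 187 and 191 FPKM in PRMT1 KD libraries, with the smallest SE of any of the 13585 genes tested (0.0354, log2 fold change -0.0018). PFDN5 came next at 36.9 to 43.0 FPKM over all libraries, followed by PFDN6, PFDN4 and PFDN1, whose order varied.

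PFDN6 (ENSG00000204220, chromosome 6, 33289302 to 33298401) had the lowest log2 fold change of the 47 entries. It was at 20.8, 20.9 and 21.7 FPKM in control and at 19.2, 17.3 and 15.2 FPKM in PRMT1 KD libraries, so that every PRMT1 KD library was below every control library. Means were 21.2 ± 0.512 and 17.2 ± 1.99 FPKM (SD, n = 3 each), and PFDN6 had a log2 fold change of -0.29 (SE 0.0815, limma adjusted p = 0.123). PFDN6 overlaps WDR46 and RGL2 on the opposite strand and MIR6834 on the same strand, and whether the counting used strand was not given in the sources used here. PFDN4 went the other way, at 15.3, 15.7 and 17.3 FPKM in control and 16.0, 18.4 and 20.4 FPKM in PRMT1 KD libraries, and its groups overlapped (log2 fold change 0.17, SE 0.0910, limma adjusted p = 0.362). As a result PFDN6 came after PFDN5 in all control libraries and in PRMT1 KD library 1, and PFDN4 came after it in PRMT1 KD libraries 2 and 3. PFDN1 was at 12.7, 16.3 and 14.3 FPKM in control and 11.4, 14.3 and 15.2 FPKM in PRMT1 KD libraries.

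BAG proteins, which release clients from HSP70, were near control. BAG3, which links HSP70 to selective autophagy and is heat-inducible, was at 14.1, 14.2 and 13.0 FPKM in control and 14.1, 13.6 and 13.3 FPKM in PRMT1 KD libraries (log2 fold change -0.011, SE 0.0542, limma adjusted p = 0.938). BAG2, an inhibitor of the ubiquitin ligase STUB1, was at 1.98, 2.28 and 2.60 FPKM in control and 2.47, 2.59 and 2.54 FPKM in PRMT1 KD libraries (log2 fold change 0.11, SE 0.0948, limma adjusted p = 0.578). BAG1 was at 99.6% of control.

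Among the 7 co-chaperones, AHSA1 and STIP1 marked the ends. AHSA1, which activates the HSP90 ATPase, was at 25.3, 27.7 and 26.2 FPKM in control and 30.1, 28.2 and 27.8 FPKM in PRMT1 KD libraries, 109% of control (log2 fold change 0.12, SE 0.0534, limma adjusted p = 0.288). Its groups were just apart. STIP1 (HOP), which joins HSP70 to HSP90, was at 56.1, 59.1 and 52.6 FPKM in control and 53.3, 52.3 and 52.6 FPKM in PRMT1 KD libraries (log2 fold change -0.082, SE 0.0513, limma adjusted p = 0.434). PTGES3 (p23), the kinase adaptor CDC37, the immunophilin FKBP4, the HSP70-interacting ST13 and the ubiquitin ligase STUB1 (CHIP) lay between 96.2% and 104% of control. ST13 shares 22.9% of its words with 14 other genes, so its reads may be split with them.

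The libraries also differed from each other within each group. PRMT1 KD library 3 was the highest of its group in 30 of the 47 entries (63.8%, compared with 39.8% of all genes tested), and control library 2 was the highest of its group in 26 (55.3%, compared with 35.7%). Summed over the 47 entries, the level was 3197, 3270 and 3092 FPKM in control and 3192, 3295 and 3412 FPKM in PRMT1 KD libraries, or 1.06% to 1.15% of all FPKM. The 6 most abundant genes (HSP90AB1, HSPA8, HSPB1, CCT3, PFDN2 and HSP90AA1) held 53.9% to 56.7% of it. HSPA8 alone held 7.83%, 7.95% and 7.49% in control and 9.12%, 9.69% and 10.1% in PRMT1 KD libraries.

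These deviations moved with the GC content of the transcripts, which ran from 33.1% to 65.0% over the list. The deviation of the 47 entries from their group mean, in log2(FPKM + 1), correlated with GC by r = 0.40, 0.62 and -0.72 in control libraries 1 to 3 and by 0.66, 0.49 and -0.74 in PRMT1 KD libraries 1 to 3. The points of a panel share a library, and the deviations of a group add up to 0, so that its libraries are not independent. Over 13574 genes tested with a GC value, r was 0.11, 0.18 and -0.27 in control and 0.25, 0.11 and -0.34 in PRMT1 KD libraries. The list was more abundant, with a median of 31.5 FPKM against 6.31 FPKM over all genes tested. No comparison with genes of similar level was made, so a greater dependence on GC in the list was not tested. In PRMT1 KD library 3, STUB1 (65.0% GC) lay 0.27 below its group mean, whereas HSPA13 (34.9% GC) lay 0.17 above it. The log2 fold changes themselves correlated with GC by -0.26 over the 47 entries and by -0.20 over all genes. Whether GC had a part in the log2 fold changes of single genes was examined only by removing the trend in each library. HSPA8, DNAJC8 and HSPB1 then had limma adjusted p-values of 0.0241, 0.0254 and 0.0311. They were the 3 of 47 entries called, beside 974 of the 13585 genes tested.

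**Figure D4:**
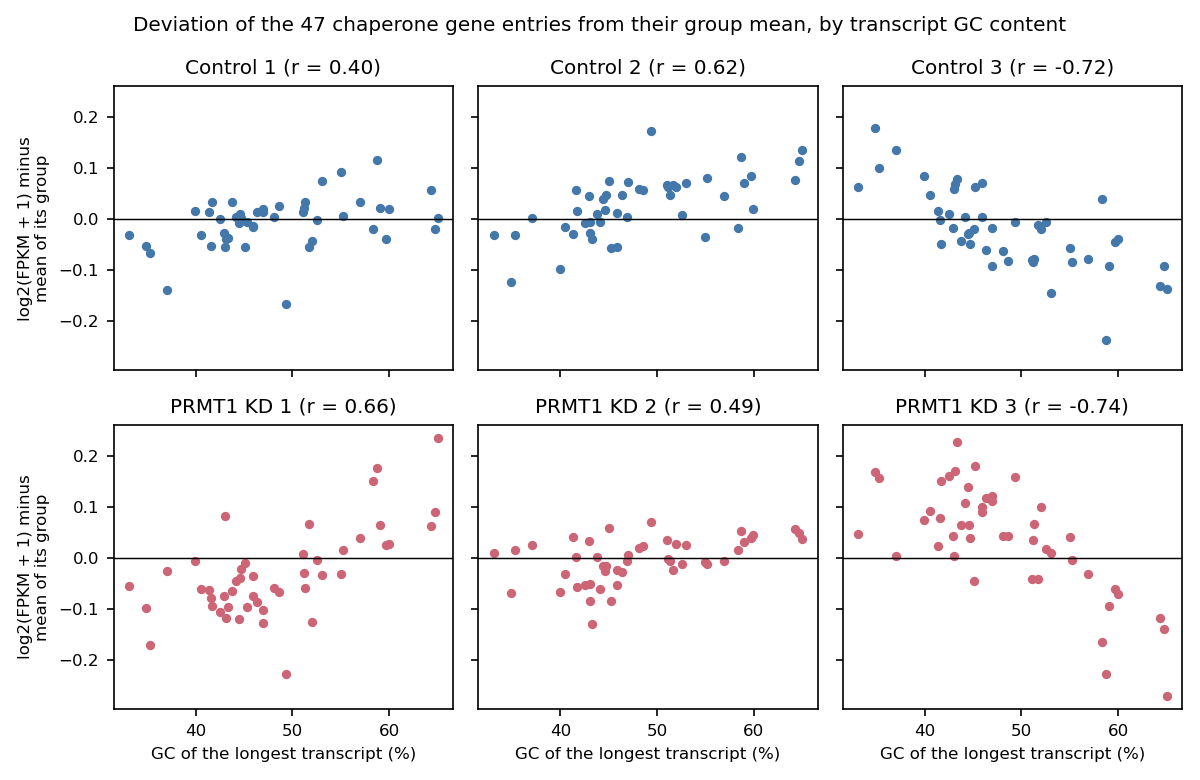
Deviation of each of the 47 entries from the mean of its group in log2(FPKM + 1) (y axis) against the GC content of the longest transcript in percent (x axis), 1 panel for each library with Pearson's r. Control 3 and PRMT1 KD 3 slope downward (r = -0.72 and -0.74), and the other 4 panels slope upward (r = 0.40 to 0.66).

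Further chaperone genes outside the list were examined in the same way. Of 63 further symbols for HSP70, small heat shock and J-domain proteins, prefoldin-like subunits, HSP90 co-chaperones and tubulin cofactors, all were found on 64 entries, and 47 entries passed the filter. None was called by limma (0 with an adjusted p under 0.05), against 2.05% of all genes tested. At an unadjusted p under 0.05, 5 were higher (10.6%, against 10.1% of all genes tested) and 4 were lower (8.51% against 9.47%), and voom called 2 (NUDCD3 and FKBP5, 4.26% against 6.82%). Their median log2 fold change was -0.010, with a median size without sign of 0.092, compared with 0.054 for the 47 entries of the list and 0.105 over all genes tested. The 95% intervals of the 47 tested lay within 1.5-fold on the log2(FPKM + 1) scale, which understates fold changes of low genes. HSPB7 had the lowest log2 fold change, -0.32 (limma adjusted p = 0.166), at 6.47, 7.03 and 6.21 FPKM in control and 5.82, 5.28 and 4.21 FPKM in PRMT1 KD libraries. The smallest adjusted p, 0.0876, was that of NUDCD3, a co-chaperone of HSP90, at 8.50, 8.71 and 8.33 FPKM in control and 10.02, 10.1 and 9.73 FPKM in PRMT1 KD libraries (log2 fold change 0.20). FKBP5, an HSP90-bound immunophilin of steroid receptors, was at 4.55, 4.53 and 3.99 FPKM in control and 5.05, 5.40 and 5.65 FPKM in PRMT1 KD libraries (log2 fold change 0.25, limma adjusted p = 0.126). UXT, a prefoldin-like subunit, was at 34.7, 30.6 and 30.3 FPKM in control and 28.6, 26.9 and 26.1 FPKM in PRMT1 KD libraries (log2 fold change -0.22, limma adjusted p = 0.135).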

How the data were processed

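RNA-seq of 3 control and 3 PRMT1 KD libraries of MM.1S cells was analysed. The authors deposited FPKM values per gene, with gene lengths and hg38 coordinates. For some genes that length exceeds the longest protein-coding transcript, so comparing FPKM between genes depends on it. The submitters' processing notes name featureCounts 1.5.0-p3, and the aligner, annotation release and strand setting were not given in the sources used here. FPKM multiplied by gene length gave whole reads for 100% of values (tolerance 0.001), with a scaling between libraries already included. The test was limma (version 3.58.1, under R 4.3.3) on log2(FPKM + 1), with empirical Bayes and a trend (two-sided, Benjamini-Hochberg adjustment over 13585 genes with a mean of at least 1 FPKM), and an adjusted p under 0.05 was called. Fold changes on this scale understate those of low genes. Nothing says whether the libraries came from separate cultures, so p-values measure only the spread between these libraries.

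The rule for the genes uses names alone, but the genes and lists were chosen with earlier results of these data known and are not independent of them. Named with their value in every library were the core heat shock genes, the highest and lowest log2 fold change of each role, and the chaperonin and prefoldin subunits by level. DNAJB2, DNAJA2, NUDCD3, FKBP5, UXT and HSPB7 were singled out after their values were seen. Shared 75-base words, transcript GC and overlaps came from GENCODE 29, and promoters from RefSeq (GRCh38.p14). Alternatives covered the pseudocount, filter, scaling, variance model, replicate block, each library left out and voom on the reads worked back. Removal of the GC trend, alone or with the block, was chosen after seeing the data.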

Additional observations from a re-analysis of the deposited data

How the results depend on the processing

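Over 18 alternatives, the median log2 fold change of the 47 entries stayed between -0.010 and 0.031. The main test called 279 genes and 0 entries. Genes called moved to 35 without a filter, 473 with a mean of at least 5 FPKM, 43 without trend, 12 with an ordinary linear model, 927 with voom, 974 with the GC trend removed and 13 to 94 with a library left out. Quantile normalization called 325 genes and TPM 355. Entries called were 1 with the filter of 5 FPKM, quantile normalization or TPM (HSPA8 each time, adjusted p = 0.0276, 0.0248 and 0.0339), 3 with voom, 3 with the GC trend removed and 0 with any library left out. The log2 fold change of HSPA8 stayed between 0.30 and 0.43, with adjusted p-values of 0.00205 to 0.198 (limma). The cause of these moves was not tested. The 279 calls split into 145 higher and 134 lower, but 82 and 139 with median scaling and 222 and 133 with TPM.

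Directions that turned belonged to genes near 0. HSPA1B went to -0.0038 with median scaling and -0.0017 with quantile normalization, and BAG3 to 0.0077 with TPM. With the GC trend removed, BAG3 went to 0.024, HSF1 to 0.020 and HSPH1 to -0.012, with the replicate block added or not. Leaving out a library gave -0.074 to 0.042 for HSF1, -0.10 to 0.13 for HSPA1B, -0.039 to 0.099 for HSP90AA1, -0.0043 to 0.057 for HSP90AB1, -0.027 to 0.083 for DNAJB1 and -0.051 to 0.011 for BAG3. Among genes that kept their direction, the log2 fold change went to 0.019 (CCT6A), 0.071 (DNAJC2) and 0.091 (PFDN4) without PRMT1 KD library 3, to 0.038 (BAG2) without control library 1 and to 0.0885 (HSPB1) without control library 3. DNAJB4, BAG2 and HSPA1A had no value at the filter of 5 FPKM.

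Same-numbered libraries deviated together by r = 0.02, 0.063 and 0.101, compared with -0.0751 to 0.0186 for libraries of different numbers. Every same-numbered value lay above that range, the lowest by a small margin. The main test did not pair the libraries by number, and whether same-numbered libraries share a source was not tested. The replicate block gave 204 genes and 0 entries called (HSPA8 adjusted p = 0.0810), and 301 and 0 with the GC trend removed. No entry had under 101 reads in any library.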
